A study of Homo sapiens with 15 samples.

Results

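Inflammatory cytokines and chemokines are the secreted proteins with which epithelial cells call leukocytes to a site of injury or infection. The genes described here are IL1A, IL1B, IL6, IL18, CXCL1, CXCL2, CXCL3, CXCL8, CCL20 and CSF2, taken by gene symbol from the 2 deposited expression tables, of which each lists the same 12995 genes. The tables list 8 of the 10. IL6 and CSF2 are not among the listed genes and are not analysed here.

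mRNA was measured in 15 libraries, in 5 groups of 3. OKF6 is a normal oral epithelial cell line, set beside 2 lines from oral cancers, SCC25 and SCC15. Both cancer lines carry the Cas9 nuclease and a guide RNA construct against YBX1 that is switched on by doxycycline, and were used as sorted pools of fluorescent cells rather than as clones. The +YBX1 groups are these lines without doxycycline, and the –YBX1 groups received 1 µg/ml doxycycline for 3 days. The labels name no such system for OKF6. OKF6 and SCC25 were grown in keratinocyte serum-free medium with pituitary extract and EGF, and SCC15 in a serum-containing medium, so that line and medium cannot be told apart for SCC15. The +YBX1 libraries enter the comparison of lines and are also the controls of the knockdown. Replicates are separate samples by their labels, and nothing says that they were separate cultures, so the p-values measure the spread between these samples.

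IL-1α and IL-1β (IL1A and IL1B) are cytokines that act through the IL-1 receptor, the adaptor MYD88 and the IRAK kinases to activate the transcription factor NF-kB. IL-1α is held ready in keratinocytes as an alarmin, whereas IL-1β and IL-18 (IL18) are made as precursors that caspase-1 cuts in the inflammasome. Among the targets of NF-kB are the chemokines CXCL1, CXCL2, CXCL3 and CXCL8 (interleukin-8), which attract neutrophils through CXCR2, and CCL20, which attracts lymphocytes and dendritic cells through CCR6.

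IL1A (chr2:112773925-112784493, minus strand) and IL1B (chr2:112829751-112836816, minus strand) lie together within 62.9 kb in hg38 with the GENCODE release 44 annotation. CXCL8 (chr4:73740519-73743716, plus strand), CXCL1 (chr4:73869393-73871308, plus strand), CXCL3 (chr4:74036589-74038807, minus strand) and CXCL2 (chr4:74097040-74099196, minus strand) lie within 358.7 kb. IL18 (chr11:112143253-112164096, minus strand) and CCL20 (chr2:227805739-227817564, plus strand) stand alone. Since the libraries count reads at the 3′ ends of transcripts, 75-base pieces of the last 500 bases of each member were mapped back to the genome. None of the 86 pieces of any member mapped as well elsewhere, but 23.3% of those of CXCL1 and 22.1% of those of CXCL2 came within 4 mismatches of the other gene, and 18.6% of those of IL18 within 4 mismatches of many other places. A transcript on the other strand overlaps the last exon of IL18.

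The promoters of the neutrophil chemokines are shown because CXCL1, CXCL2 and CXCL3 share a match to the NF-kB consensus, which the window of CXCL8 does not hold. RefSeq (GRCh38.p14) gave a window of 300 bases, from 250 before to 50 after the start site, for 9 of the 10 named genes and 7 of the 8 listed ones, IL18 being the exception. Capitals mark matches to the NF-kB consensus, which on both strands overlap into 1 run, and there are none in CXCL8. The windows are chr4:73869143-73869442 (plus strand) for CXCL1, chr4:74099146-74099445 (minus strand) for CXCL2, chr4:74038640-74038939 (minus strand) for CXCL3 and chr4:73740319-73740618 (plus strand) for CXCL8.
CXCL1: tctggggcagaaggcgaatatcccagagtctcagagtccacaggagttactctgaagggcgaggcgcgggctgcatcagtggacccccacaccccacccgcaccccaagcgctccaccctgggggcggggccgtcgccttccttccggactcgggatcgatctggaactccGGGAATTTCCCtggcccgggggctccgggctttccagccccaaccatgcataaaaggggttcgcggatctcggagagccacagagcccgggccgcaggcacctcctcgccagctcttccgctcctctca
CXCL2: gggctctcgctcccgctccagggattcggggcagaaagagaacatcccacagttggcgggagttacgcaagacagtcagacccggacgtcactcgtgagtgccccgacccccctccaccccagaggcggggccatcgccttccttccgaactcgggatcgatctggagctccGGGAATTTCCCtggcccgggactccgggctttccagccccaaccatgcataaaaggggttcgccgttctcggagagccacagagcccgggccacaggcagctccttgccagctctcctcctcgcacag
CXCL3: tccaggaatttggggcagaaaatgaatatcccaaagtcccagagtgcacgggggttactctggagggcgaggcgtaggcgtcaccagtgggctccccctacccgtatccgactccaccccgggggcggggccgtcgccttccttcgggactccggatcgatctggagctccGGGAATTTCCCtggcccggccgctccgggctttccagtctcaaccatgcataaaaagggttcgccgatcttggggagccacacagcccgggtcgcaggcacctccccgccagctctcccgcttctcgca
CXCL8: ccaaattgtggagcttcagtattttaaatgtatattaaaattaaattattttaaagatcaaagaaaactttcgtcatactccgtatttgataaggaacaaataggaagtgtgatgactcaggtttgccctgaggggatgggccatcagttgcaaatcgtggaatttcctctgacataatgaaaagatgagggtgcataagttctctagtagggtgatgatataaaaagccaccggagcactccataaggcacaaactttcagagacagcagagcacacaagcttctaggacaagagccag

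The NF-kB match began 79 bases before the start site in CXCL1 and CXCL3 and 78 bases before it in CXCL2, with the same letters in all 3 genes. Over the whole window, CXCL1 and CXCL3 were identical at 82.5% of aligned positions, CXCL2 and CXCL3 at 73.7% and CXCL1 and CXCL2 at 69.8%, whereas CXCL8 was identical to each of them at 43.1% to 44.2%. CCL20 held an NF-kB match on the opposite strand (gttgccacatGGGGTTTTCCccattgatca, chr2:227813763-227813772 for the capitals), from 79 to 70 bases before the start. The NF-kB consensus was found in the windows of 4 of the 7 listed members with a promoter and in 10.8% of all 27305 promoters, or 13.1% of the promoters of genes in the tables. TGANTCA, the AP-1 motif, was found in CXCL8 (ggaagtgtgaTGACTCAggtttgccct, chr4:73740432-73740438 for the capitals) and IL1A (cgaagaagacTGACTCAggcttaagct, chr2:112784499-112784505 for the capitals) and in 7.76% of all promoters. ATTGG, the inverted CCAAT of the Y box after which YBX1 is named, was found in IL1A, IL1B and CCL20 and in 35.7% of all promoters. The C/EBP motif (TT, any base, C, any 2 bases and AA) was found in IL1A, IL1B and CXCL2 and in 37.3% of all promoters, its narrower form (TTGC, any 2 bases and AA), which the first contains, in IL1B and CXCL2 and in 10.6%, and TATAAA in IL1A, CXCL8 and CCL20 and in 11.95%. All motifs were sought on both strands. A match is a description of the letters and not evidence of binding. The lack of a match is likewise not evidence that binding is absent.

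Libraries held between 4075290 and 6118501 reads on genes, so that a single read was worth 0.138 to 0.226 CPM (read count scaled to the normalised library size). The deposited values are log2 CPM with 0.5 added to each count, and whole reads could be recovered from all of them. A count of 0 allows up to 3 reads, and intervals on reads cover counting error only. The cell type of each line was checked with 10 keratinocyte markers (keratins, TP63, CDH1 and others). Their summed level lay between 24066 and 35228 CPM in OKF6 and between 8897 and 20208 CPM in SCC25 +YBX1, but between 5.56 and 40.04 CPM in SCC15 +YBX1, where TP63 and DSG3 had at most 3 reads in every library. All 10 markers were lower in SCC15 than in OKF6 and in SCC25. The libraries labelled SCC15 thus went against the markers of an oral keratinocyte line, and the labels are kept here. Of 12 leukocyte markers, the tables list CD14 and CD68, and of 9 fibroblast and endothelial markers, COL1A1 and LUM. CD14 and CD68 were lower in SCC15 than in both other lines, LUM was higher in SCC15 than in both, and COL1A1 was lower in SCC15 than in SCC25.

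To find how the cancer lines differ from normal oral epithelial cells, the 3 lines were compared without knockdown. In SCC15 the members other than CXCL3 were at 0 to 6 reads a library. All 8 members were lower in SCC15 than in OKF6 and lower in SCC15 than in SCC25 (limma, adjusted p under 0.05), beside 23.4% and 23.6% of all genes that were lower in these comparisons. The authors had filtered the genes. One with 0 or few reads in SCC15 was likely listed for its reads in other groups. Its difference could then hardly be other than lower in SCC15. The same holds for genes of the lists below that had no read in SCC15. SCC25 kept IL1A, CXCL1, CXCL3, CXCL8 and CCL20 at levels that could not be told from OKF6 with 3 libraries a group. IL1B and IL18 were lower in SCC25 than in OKF6, as were 11.3% of all genes, but both calls were lost when certain single libraries were left out. CXCL2 was lower in SCC25 without overlap but did not pass, with a difference of -2.33 ± 0.91 (log2, SE, adjusted p = 0.0784, limma).

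**Figure D1:**
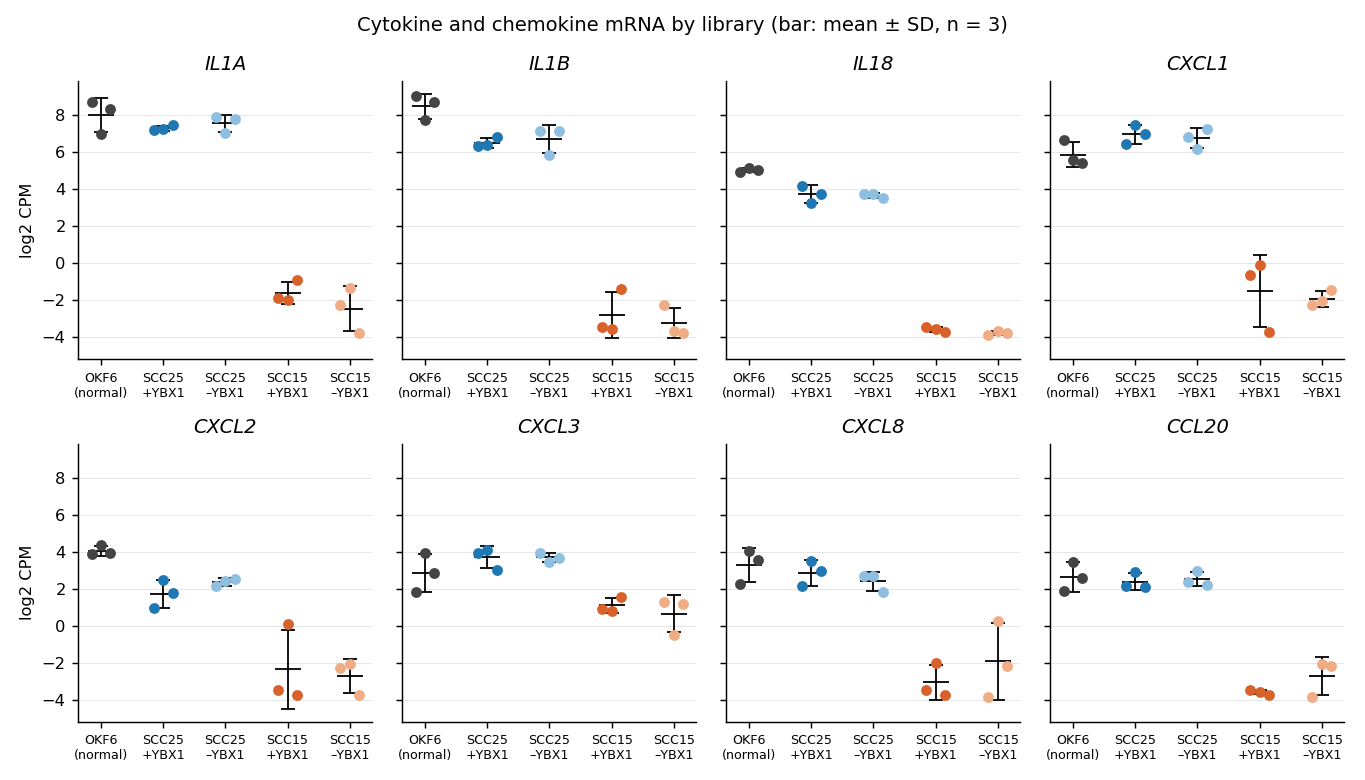
Level of each listed member in every library, as log2 CPM (vertical axis), by group (horizontal axis), with 1 point per library and the mean ± SD of 3 libraries. Every OKF6 and SCC25 point lies above every SCC15 point for all 8 members. OKF6 and SCC25 +YBX1 do not overlap for IL1B, IL18 and CXCL2. CXCL3 keeps 4 to 19 reads in each SCC15 library, and +YBX1 and –YBX1 overlap for all 8.

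IL1A was read at 424, 125 and 319 CPM in the 3 OKF6 libraries and at 148, 152 and 176 CPM in SCC25 +YBX1. The second OKF6 library was the low one and fell under all SCC25 libraries, so that the groups overlapped. SCC15 +YBX1 had 1, 1 and 3 reads of IL1A, against 556 to 2212 reads in OKF6. Taken over the group, IL1A was 1072-fold lower in SCC15 than in OKF6 by reads (exact 95% counting interval 459 to 3303), and 567-fold lower than in SCC25 (243 to 1748). The fitted difference was -9.59 ± 0.44 (log2, SE) against OKF6 and -8.89 ± 0.44 against SCC25, with adjusted p of 1.03e-07 and 1.82e-07 (limma). Between SCC25 and OKF6 it was -0.70 ± 0.44 (95% interval -1.68 to 0.28, adjusted p = 0.261, limma). Without OKF6 replicate 2, this difference became -1.22 with an adjusted p of 0.0284 (limma).

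IL1B was read at 528, 214 and 413 CPM in OKF6 and at 80.1, 84.7 and 112 CPM in SCC25 +YBX1. Every OKF6 library was above every SCC25 library, with a difference of -1.98 ± 0.56 (log2, SE; adjusted p = 0.0222, limma). This call was lost when the third OKF6 library or any one of the SCC25 libraries was left out, with differences of -1.88 to -2.13 and adjusted p of 0.0504 to 0.0772 (limma). SCC15 +YBX1 had 0, 0 and 2 reads of IL1B, which by reads over the group was 3536-fold lower than OKF6 (exact 95% counting interval 978 to 29200) and 822-fold lower than SCC25 (227 to 6793). The ends of these intervals show how little such low counts fix the size of the difference.

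IL18, which was the steadiest member in OKF6, was read at 30.1, 35.0 and 32.7 CPM there and at 18.2, 9.46 and 13.5 CPM in SCC25 +YBX1. The groups did not overlap, and SCC25 was lower, with a difference of -1.29 ± 0.43 (log2, SE; adjusted p = 0.0443, limma). The adjusted p lay between 0.0529 and 0.176 when each of the 6 libraries was left out in turn, so that the call rested on all of them. None of the 6 SCC15 libraries had a read of IL18. Against a floor of 3 reads over the group, the level in SCC15 +YBX1 was at least 194-fold lower than that in OKF6 and at least 82.5-fold lower than that in SCC25 +YBX1.

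CXCL1 was read at 101, 47.1 and 42.7 CPM in OKF6, at 87.8, 180 and 127 CPM in SCC25 +YBX1, and as 3, 5 and 0 reads in SCC15 +YBX1. The highest OKF6 library stood within the range of SCC25, and the difference of 1.099 ± 0.79 (log2, SE) had a 95% interval of -0.65 to 2.85 (adjusted p = 0.324, limma). SCC15 was lower than both, with differences of -7.36 ± 0.79 from OKF6 and -8.46 ± 0.79 from SCC25 (adjusted p = 2.01e-05 and 9.70e-06, limma). CXCL2, a close paralogue of CXCL1, was read at 14.9, 20.7 and 15.17 CPM in OKF6 and at 1.88, 5.52 and 3.33 CPM in SCC25 +YBX1. These groups did not overlap, but the difference of -2.33 ± 0.91 did not pass (adjusted p = 0.0784, limma). It passed when just these groups were fitted, with quantile normalization, with voom weights on the recovered reads and with log2 of CPM plus 1, at adjusted p of 0.00262 to 0.0389 (limma). The 3 SCC15 +YBX1 libraries had 0, 6 and 0 reads of CXCL2.

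CXCL3 was the member that SCC15 kept best. It was read at 3.45, 15.11 and 7.08 CPM in OKF6, at 15.6, 17.3 and 8.11 CPM in SCC25 +YBX1 and at 1.82, 1.69 and 2.93 CPM (10, 10 and 19 reads) in SCC15 +YBX1. All SCC15 libraries were below all others. The difference from OKF6 of -1.75 ± 0.57 (log2, SE; adjusted p = 0.0250, limma) no longer passed in 4 of 15 alternative fits, at adjusted p of 0.0563 to 0.0801. These were the fit of only the groups compared and the fits without OKF6 replicate 2 or without SCC15 replicate 1 or 2. The difference from SCC25, -2.60 ± 0.57 (adjusted p = 0.00369, limma), passed in all 15. SCC25 minus OKF6 was 0.85 ± 0.57 (95% interval -0.41 to 2.10, adjusted p = 0.290, limma).

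CXCL8 was read at 4.79, 16.2 and 11.97 CPM in OKF6 and at 4.32, 11.4 and 7.69 CPM in SCC25 +YBX1, and as 0, 1 and 0 reads in SCC15 +YBX1. OKF6 and SCC25 overlapped widely, with a difference of -0.43 ± 0.67 (log2, SE; 95% interval -1.91 to 1.06, adjusted p = 0.664, limma). With its single read, CXCL8 was 193-fold lower in SCC15 than in OKF6 (exact 95% counting interval 34.2 to 7673). CCL20 was read at 3.64, 11.1 and 5.90 CPM in OKF6 and at 4.32, 7.49 and 4.16 CPM in SCC25 +YBX1, with a difference of -0.27 ± 0.54 (95% interval -1.47 to 0.93, adjusted p = 0.743, limma). The groups again overlapped. With no read in any SCC15 +YBX1 library, CCL20 was at least 39.5-fold lower there than in OKF6. Its bound against SCC25 +YBX1 was 31.8-fold.

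**Figure D2:**
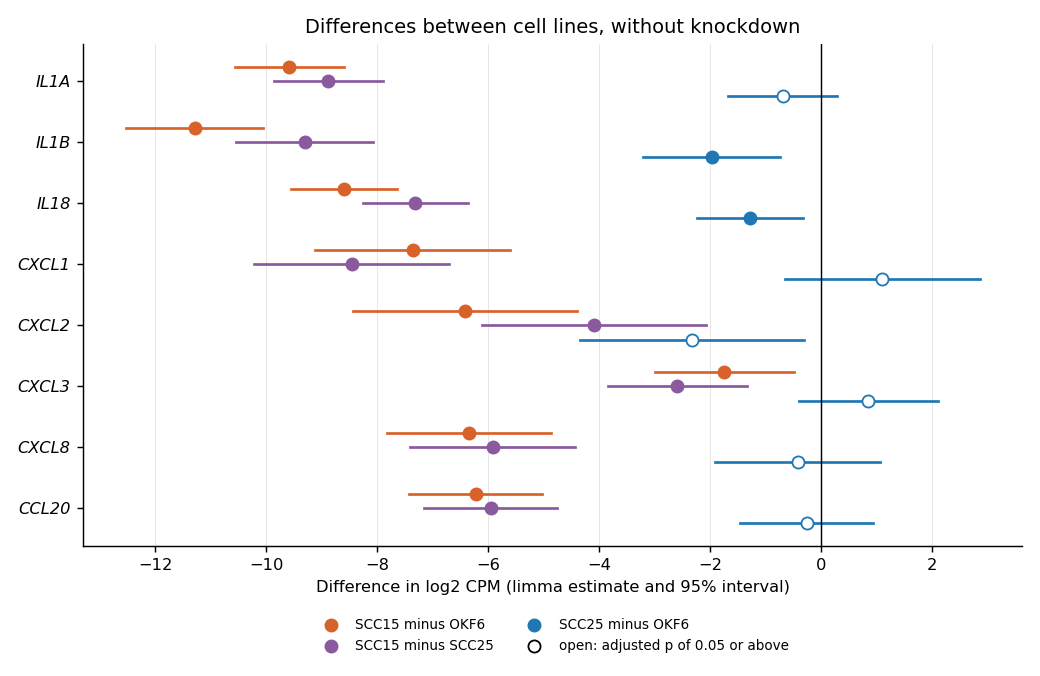
Difference in log2 CPM of each member between the lines without knockdown (horizontal axis), as the limma estimate with its 95% interval, and filled where the adjusted p was under 0.05. SCC15 is lower for all 8 members in both comparisons, from -1.75 for CXCL3 to -11.29 for IL1B, and SCC25 minus OKF6 is filled for IL1B and IL18 only. For genes with 0 or few reads in SCC15 the estimate depends on the 0.5 added to each count.

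The shares over all genes give the scale for these counts. Of the 12995 genes tested, 23.4% were called lower and 26.9% higher in SCC15 than in OKF6. In SCC15 against SCC25 these were 23.6% lower and 20.0% higher, and in SCC25 against OKF6 11.3% lower and 18.9% higher. With quantile normalization the balance of the last comparison moved from 2450 genes higher and 1473 lower to 2006 and 1837. In SCC15 against SCC25 the balance turned over, from 2602 genes higher and 3070 lower to 3430 and 2767 with quantile normalization and to 3045 and 2685 with equal library medians. The share of genes whose groups did not overlap was 54.4%, 66.6% and 43.3% in the same order, against 8, 8 and 3 of the 8 members. The median difference of the members was -6.89 (log2) in SCC15 minus OKF6, beside 0.10 over all genes, and it was the same with IL18 and CCL20 set at their bounds. In SCC15 minus SCC25 it was -6.64, or -6.14 with these genes at their bounds, beside -0.01 over all genes. In SCC25 minus OKF6 it was -0.56 beside 0.13. Leaving out each library in turn left 7 or 8 members lower in SCC15 than in OKF6, 8 lower than in SCC25, and 0 to 2 lower in SCC25 than in OKF6. The summed keratinocyte markers, given above, were low in the same SCC15 libraries, and their part in the result was not tested. In such bulk RNA, fewer cells that express a gene and less RNA of it per cell cannot be told apart.

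Within a library, the ratio of 2 members does not depend on the scaling. These ratios were chosen after the values had been seen, and with 3 libraries against 3 the exact two-sided permutation test cannot go below 0.1. IL1B over IL1A was 0.49 ± 0.25 (log2, mean ± SD, n = 3) in OKF6 and -0.79 ± 0.12 in SCC25 +YBX1, so that IL1B reads outnumbered IL1A reads in each OKF6 library and were outnumbered in each SCC25 library. CXCL2 over CXCL3 was 1.21 ± 0.82 in OKF6 and -1.96 ± 0.91 in SCC25 +YBX1, and CXCL2 over CXCL1 was -1.80 ± 0.83 and -5.23 ± 0.24. Groups did not overlap for these 3 ratios (exact permutation p = 0.1, or 0.167 adjusted over 5 ratios). The 2 remaining ratios, CXCL3 over CXCL1 (exact permutation p = 1.0) and CXCL8 over CXCL1 (exact permutation p = 0.4), differed by -0.25 and -1.53. Since CXCL1 and CXCL2 share near-identical stretches at their 3′ ends, the split of reads between them is less certain than for the other members.

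**Figure D3:**
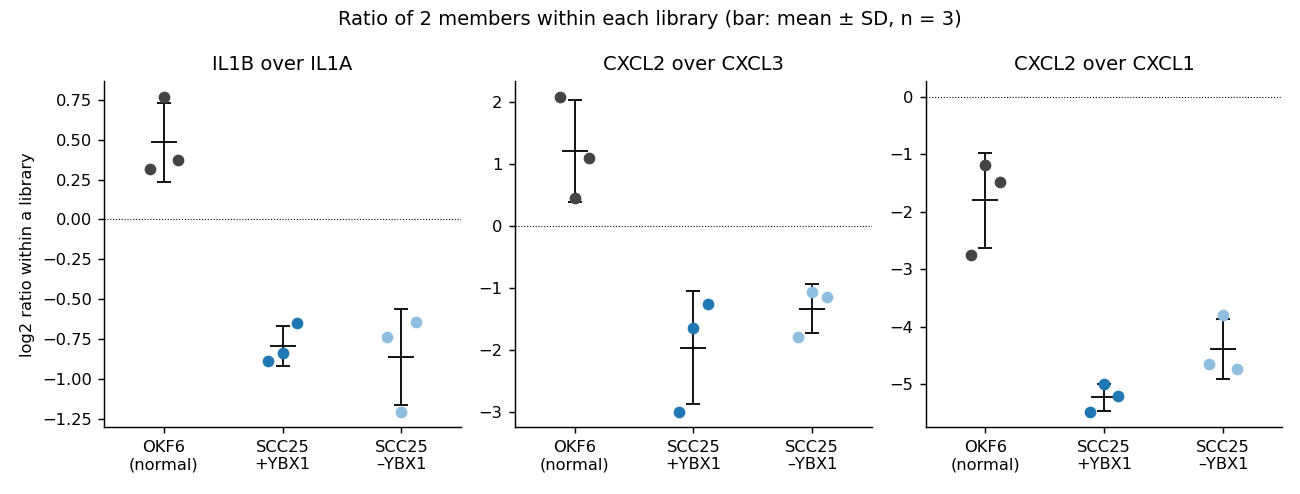
Log2 ratio of 2 members within each library (vertical axis) in OKF6 and in SCC25 with and without knockdown (horizontal axis), with 1 point per library and the mean ± SD of 3 libraries. All OKF6 points lie above all SCC25 points in each panel, and for IL1B over IL1A and CXCL2 over CXCL3 the sign turns from positive to negative.

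The genes around the IL-1 and NF-kB axis were followed in lists that were chosen with earlier results of these data known. Of 11 listed genes of the inflammasome and IL-1 processing, 10 were lower in SCC15 than in OKF6 (median difference -6.88, log2) and 10 were lower than in SCC25. PYCARD, the inflammasome adaptor, differed by -9.47 ± 0.71 from OKF6 (log2, SE; adjusted p = 1.51e-06, limma). CASP1, which cuts the IL-1β and IL-18 precursors, had no read in any SCC15 +YBX1 library and was at least 311-fold lower than in OKF6. CASP4, an inflammatory caspase, differed by -8.99 ± 0.54. In the SCC15 +YBX1 libraries PYCARD had at most 5 reads and CASP4 at most 1. CARD8, another inflammasome gene, was lower in SCC25 than in OKF6 and in SCC15 (from OKF6, -1.05 ± 0.35, adjusted p = 0.0456, limma).

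Of 4 listed receptors, 3 were lower in SCC15 than in OKF6. These were IL1RAP (the IL-1 receptor accessory chain, -5.02 ± 0.52), IL1R1 (the signalling IL-1 receptor, -2.60 ± 0.61) and IL6ST (the shared gp130 chain, -2.12 ± 0.27). Of 4 listed inhibitors of the IL-1 family, IL1RN, the IL-1 receptor antagonist, and IL36RN, the IL-36 receptor antagonist, had no read in SCC15 +YBX1 and were at least 807-fold and 57.1-fold lower than in OKF6. SIGIRR, an inhibitory receptor of the family, was higher in SCC15 by 2.29 ± 0.65 than in OKF6 and by 3.58 ± 0.65 than in SCC25. The antagonists were also lower in SCC25 than in OKF6, with differences of -4.79 ± 0.77 for IL36RN and -1.48 ± 0.51 for IL1RN (adjusted p = 0.00114 and 0.0478, limma). IL36RN had at most 2 reads in the SCC25 +YBX1 libraries and was likely listed for its reads in OKF6. The size of its difference depends on the 0.5 added to each count. IL1R2, the decoy receptor counted in both lists, was lower in SCC15 than in SCC25, with a difference of -6.26 ± 1.47.

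Of 12 listed genes between the IL-1 receptor and NF-kB, 5 were lower in SCC15 than in OKF6 and none higher, beside 23.4% and 26.9% of all genes. MYD88 differed by -6.28 ± 0.40, IRAK3 by -5.01 ± 0.65 and IRAK2 by -3.67 ± 0.46. In the SCC15 +YBX1 libraries MYD88 had at most 4 reads, IRAK3 at most 1 and IRAK2 at most 13. In SCC15 minus SCC25, 6 were lower and 2 higher, of which TAB2 (-0.66 ± 0.22) was no longer called with either equal library medians or quantile normalization. In SCC25 minus OKF6, 3 were lower, all by less than IRAK2 above, and these were TAB3 (-1.35 ± 0.25), CHUK (-0.88 ± 0.23) and TAB1 (-0.71 ± 0.22), 2 TAK1-binding proteins and an IkB kinase. The call of TAB1 was lost with quantile normalization. Of 4 listed NF-kB subunits, RELB (-3.17 ± 0.54), NFKB2 (-2.02 ± 0.76) and NFKB1 (-1.51 ± 0.31) were lower in SCC15 than in OKF6, NFKB2 not with library medians set equal. RELA, the p65 subunit, was higher in SCC25 than in OKF6 by 1.02 ± 0.29 (adjusted p = 0.0222, limma), a call that was lost with quantile normalization.

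All 15 NF-kB feedback inhibitors and targets are listed, of which 11 were lower in SCC15 than in OKF6 and 13 lower than in SCC25, with median differences of -2.59 and -3.44. BIRC3, an inhibitor of apoptosis, differed by -5.92 ± 0.75 from OKF6, TNFAIP3 (A20), which shuts off NF-kB signalling, by -5.79 ± 0.32, and NFKBIZ, a nuclear IkB protein, by -4.15 ± 0.53. In the SCC15 +YBX1 libraries BIRC3 had at most 2 reads, TNFAIP3 at most 14 and NFKBIZ at most 10. In SCC25, none of the 15 was lower than in OKF6 and 6 were higher, beside 18.9% of all genes. PTGS2, the inducible cyclooxygenase, was higher by 3.35 ± 0.52, ICAM1, a leukocyte adhesion molecule, by 3.25 ± 0.69 and TRAF1, a signalling adaptor, by 3.13 ± 0.49 (adjusted p = 0.000972, 0.00540 and 0.000968, limma). With quantile normalization, 2 of the 6, NFKBIE and SOD2, were no longer called, and SOD2 was not called with equal library medians either. CXCL1, CXCL2, CXCL3, CXCL8 and CCL20, which are also targets of NF-kB, were not called higher in the same comparison.

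**Figure D4:**
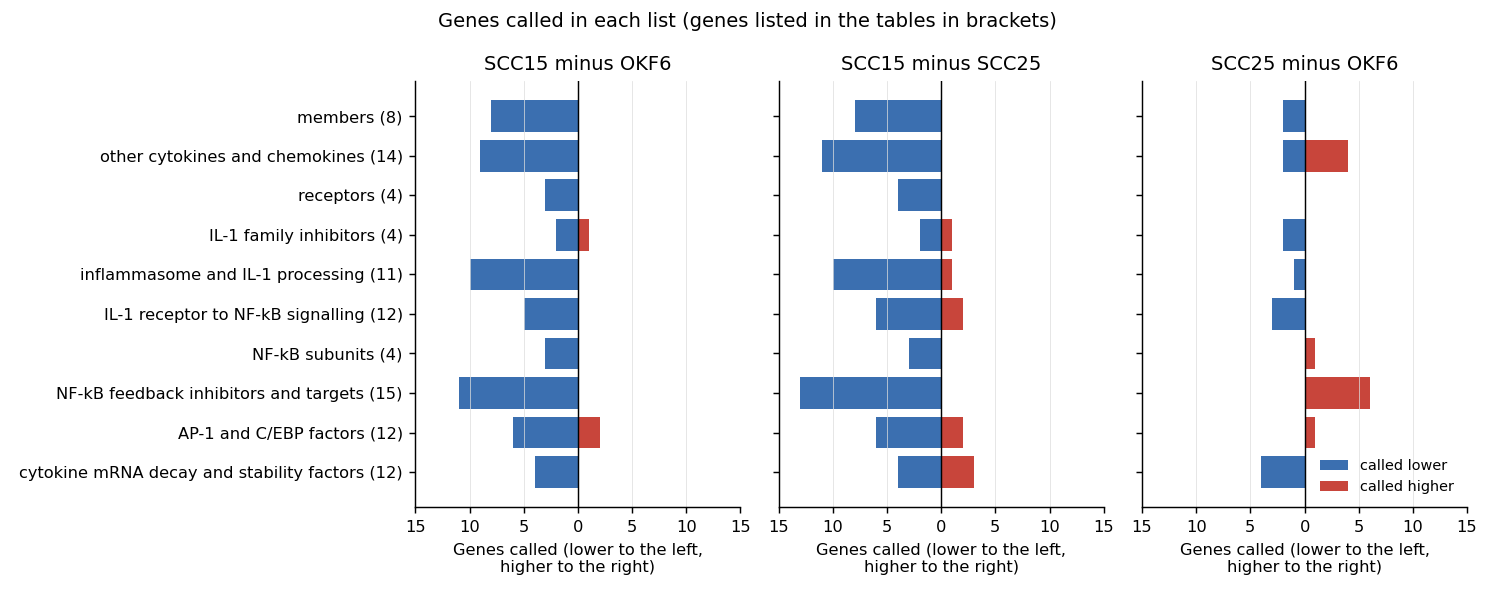
Number of genes called lower (to the left) and higher (to the right) in each list (vertical axis, genes listed in brackets), for the 3 comparisons of lines without knockdown. Bars for SCC15 point mostly to the left, and in SCC25 minus OKF6 the NF-kB feedback inhibitors and targets have 6 genes higher and 0 lower.

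Of 14 other cytokines and chemokines listed, 9 were lower in SCC15 than in OKF6, led by CSF3, IL36G and CXCL14. None of the 14 was higher. CSF3, the granulocyte growth factor, differed by -9.98 ± 0.67, with at most 4 reads in the SCC15 +YBX1 libraries. IL36G, an epithelial IL-36 cytokine, and CXCL14, an epithelial chemokine, had no read in SCC15 and were at least 145-fold and 57.9-fold lower. In SCC25 minus OKF6, 4 were higher and 2 lower, beside 18.9% and 11.3% of all genes. CX3CL1, a membrane-bound chemokine, was at least 21.5-fold higher in SCC25. It had no read in any OKF6 or SCC15 library, so that it was likely listed for its reads in SCC25. Its difference could then hardly be other than higher there. CXCL11, an interferon-induced chemokine, was higher by 4.002 ± 1.35 (adjusted p = 0.0462, limma), while CSF3 was lower, with a difference of -5.32 ± 0.67. The OKF6 libraries were themselves far apart in CXCL11, with an SD of 3.57 (log2).

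Of 12 AP-1 and C/EBP factors, 6 were lower and 2 higher in SCC15 than in OKF6, beside 23.4% and 26.9% of all genes. The largest differences were those of FOSL1 (-7.21 ± 0.51), CEBPD (-6.79 ± 0.46) and FOS (-5.85 ± 0.79). In the SCC15 +YBX1 libraries FOSL1 had at most 8 reads, CEBPD at most 19 and FOS at most 2. JUNB alone was called in SCC25 minus OKF6, by 1.40 ± 0.33. Of 12 factors that destroy or stabilise cytokine mRNA, 4 were lower in SCC15 than in OKF6, beside 23.4% of all genes. ZFP36 (tristetraprolin), which binds AU-rich elements of cytokine mRNAs for decay, differed by -6.32 ± 0.65, its relative ZFP36L1 by -4.65 ± 0.23 and ZC3H12A (Regnase-1), a nuclease of such mRNAs, by -4.01 ± 0.42. ZFP36 was also lower in SCC25 than in OKF6, with a difference of -4.03 ± 0.65 (adjusted p = 0.00117, limma), with ZFP36L2 (-1.32 ± 0.18), HNRNPD (-0.82 ± 0.18) and TIA1 also lower. No gene of the lists that was called in these comparisons changed sign under equal medians or quantile normalization.

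The genes nearest in pattern to the members were sought over all 15 libraries. The pattern was the mean of the centred log2 CPM of CXCL1, CXCL2, CXCL3 and CXCL8, the members with more than 3 reads in at least 1 library of every line. Among the nearest by the root mean square difference were MTSS1 (0.50, log2), a gene listed without a symbol (0.55), MMP19 (0.56) and FUT2 (0.58), beside a median of 2.77 over all other genes. CCL20 stood at 0.62, IL18 at 1.39, IL1A at 2.31 and IL1B at 2.69. Values were centred but not scaled, so that this distance also grows with the size of the differences between lines. The centred means of IL1A were 4.23 in OKF6, 3.53 in SCC25 +YBX1 and -5.36 in SCC15 +YBX1, beside 2.28, 2.07 and -3.19 for the pattern. MTSS1, a regulator of the cytoskeleton, had a mean of 6.63 log2 CPM in OKF6, 6.52 in SCC25 +YBX1 and 0.86 in SCC15 +YBX1. MMP19 and FUT2 had no read in SCC15, where CXCL1, CXCL2 and CXCL8 had at most 7 reads a library. Likeness to the pattern thus rests partly on values at the floor in SCC15.

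To find whether the members change with the YBX1 knockdown, –YBX1 was compared with +YBX1 in each line. All –YBX1 libraries and no +YBX1 library received doxycycline, and no group had doxycycline alone or a control guide. Loss of YBX1, doxycycline and cutting by Cas9 therefore cannot be told apart. YBX1 itself was read at 107, 79.0 and 97.9 CPM in SCC25 +YBX1 and at 38.3, 25.96 and 12.5 CPM in SCC25 –YBX1. In SCC15 it was read at 34.4, 47.0 and 63.8 CPM with YBX1 and at 10.2, 13.0 and 8.67 CPM after knockdown. The groups did not overlap in either line, and the changes of -2.01 ± 0.35 and -2.15 ± 0.35 (log2, SE) had adjusted p of 0.290 and 0.326 (limma), while their mean, -2.08 ± 0.24, passed (adjusted p = 0.0103, limma). That call was lost without the variance trend (adjusted p = 0.140, limma) and when 1 of 6 libraries was left out (adjusted p of 0.0527 to 0.0711, limma), namely SCC15 +YBX1 replicates 2 and 3, SCC15 –YBX1 replicates 1 and 3 and SCC25 +YBX1 replicates 1 and 3. YBX1 mRNA remained in both lines. How much of the gene was edited was not analysed here.

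No member was called after the knockdown in either line. By limma at an adjusted p under 0.05, 0.0% of all genes were called in SCC25, 0.0% in SCC15, 0.0% in the difference between the lines, and 0.0077% (1 gene, YBX1) in the mean of both lines. At an unadjusted p under 0.05 the shares of all genes were 3.09% in SCC25, 2.32% in SCC15, 2.15% in the mean and 2.26% in the difference between lines, with 0 of the 8 members in each, and 0 members had an adjusted p under 0.05 with voom weights on the recovered reads. Groups did not overlap for 7.31% of all genes in SCC25 and 7.04% in SCC15, and for 0 of the 8 members.

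In SCC25, IL1A was read at 237, 133 and 221 CPM after knockdown, beside 148 to 176 CPM before it, and IL1B at 142, 57.4 and 141 CPM, beside 80.1 to 112 CPM. For both genes the second –YBX1 library was the lowest and the other two were above all +YBX1 libraries. The changes were 0.27 (log2, 95% interval -0.85 to 1.39) for IL1A and 0.20 (-1.11 to 1.51) for IL1B. The second –YBX1 library also had the largest share of reads in its 10 most abundant genes (16.2%, with 8.43% the lowest of all libraries). Without it, the change of IL1B was 0.63, and 6 genes of the table but 0 members were called. IL18 was read at 13.1, 13.4 and 11.3 CPM after knockdown, within its +YBX1 range, with a change of -0.08 (-0.96 to 0.81), the narrowest interval of the 8.

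CXCL1 was read at 112, 73.4 and 155 CPM in SCC25 –YBX1, a change of -0.22 (log2, 95% interval -1.75 to 1.32). CXCL2 was read at 4.37, 5.23 and 5.77 CPM, a change of 0.63 with the interval -1.22 to 2.47. CXCL3 was read at 15.295, 11.04 and 12.9 CPM, all within its +YBX1 range, with a change of 0.00 (-1.04 to 1.03). CXCL8, at 6.36, 6.39 and 3.46 CPM, gave -0.47 (-2.29 to 1.35), and CCL20, at 5.16, 7.75 and 4.61 CPM, gave 0.15 (-1.002 to 1.3003). All these intervals span changes of more than 0.8 in both directions, and those of CXCL2 and CXCL8 reach 2.47 and -2.29. YBX1 itself changed by -2.01 ± 0.35 (log2, SE) in SCC25 and was not called. Effects of the knockdown on the members, also larger ones than 0.8, could therefore be missed with 3 libraries a group. The ratio of CXCL2 over CXCL1 was higher after knockdown by 0.84 (log2), without overlap, at the smallest p of the exact permutation test (0.1, or 0.5 adjusted over 5 ratios), and IL1B over IL1A differed by -0.07 (exact permutation p = 0.9).

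In SCC15 the knockdown did not bring the members other than CXCL3 above the level of a few reads. IL18 had no read after knockdown, IL1A had 1, 2 and 0 reads, IL1B 1, 0 and 0, CXCL1 1, 1 and 2, CXCL2 1, 1 and 0, and CCL20 0, 1 and 1. CXCL8 had 0, 7 and 1 reads, of which the 7 reads in the second library were the most for it in SCC15. CXCL3, which alone had more than 3 reads in all 6 SCC15 libraries, was read at 2.35, 0.644 and 2.24 CPM after knockdown, a change of -0.44 (log2, 95% interval -1.48 to 0.59). The knockdown effect on CXCL3 in SCC25 minus that in SCC15 was 0.44 (-1.03 to 1.90). The summed keratinocyte markers lay between 6876 and 24748 CPM in SCC25 –YBX1 and between 7.33 and 20.9 CPM in SCC15 –YBX1.

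**Figure D5:**
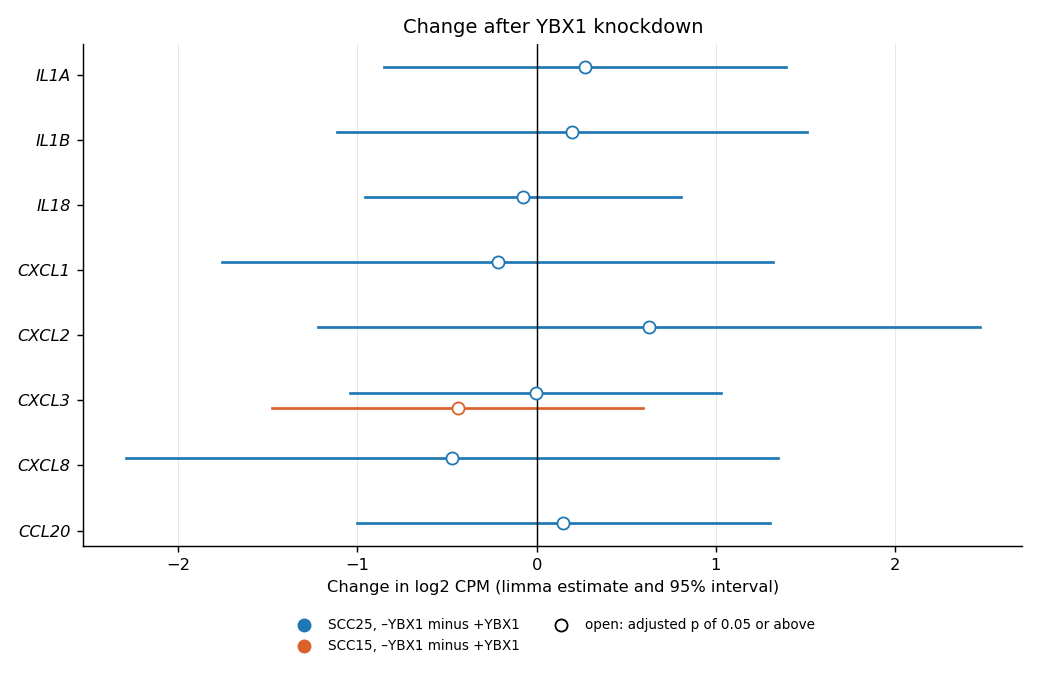
Change in log2 CPM of each member after YBX1 knockdown (horizontal axis), as the limma estimate with its 95% interval, in SCC25 for all 8 members and in SCC15 for CXCL3, the member with more than 3 reads in all 6 libraries. All points are open, with an adjusted p of 0.05 or above, and all intervals include 0.

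None of the genes of the lists around the IL-1 and NF-kB axis was called after knockdown in either line. At an unadjusted p under 0.05, none of the 15 NF-kB feedback inhibitors and targets passed in SCC25 and 2 in SCC15 (TNFAIP3, -0.87 ± 0.36, and TRAF1, 0.81 ± 0.37, log2, SE), and of 11 inflammasome and IL-1 processing genes none passed in either. TNFAIP3 and TRAF1 had at most 14 and 10 reads in the SCC15 +YBX1 libraries. In SCC15 the same threshold was passed by 1 of 12 genes between the IL-1 receptor and NF-kB, 1 of 4 receptors and 1 of 12 AP-1 and C/EBP factors. IRAK3, an inhibitory member of the IRAK family, had at most 1 read in the SCC15 +YBX1 libraries and at most 5 after knockdown, with a fitted change of 2.67 ± 0.50 (unadjusted p = 0.000115, adjusted p = 0.633, limma), and was also past the unadjusted threshold in the mean of both lines (1.62 ± 0.35, unadjusted p = 0.000461, limma). IL1RAP had at most 11 reads before and 16 after knockdown (1.22 ± 0.42), and FOS at most 2 and 8 (1.60 ± 0.71). In SCC25 no gene of these lists passed it. The median change of the NF-kB feedback inhibitors and targets was 0.12 (log2) in SCC25 and 0.02 in SCC15, beside -0.02 and -0.01 over all genes.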

How the data were processed

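RNA of OKF6, SCC15 and SCC25 was analysed in 15 libraries. The authors prepared QuantSeq 3′ libraries and processed the reads with Cutadapt, HISAT2 (hg38), featureCounts and, for filtering and normalisation, limma. The authors deposited log2 CPM values, with 0.5 added to each read count, for 12995 genes. One table holds the lines (9 libraries) and another the knockdown (12 libraries), and 6 libraries are in both. Reads were recovered as whole numbers (tolerance 0.01) for 100% of values.

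Groups were compared on the deposited log2 values with limma 3.58.1 in R 4.3.3 (lmFit and trended eBayes). All groups of a table entered 1 fit, without the replicate number. Tests were two-sided, and the Benjamini-Hochberg adjusted p over 12995 genes was held against 0.05. Libraries of the knockdown with the same label number deviated together (correlations of 0.143 to 0.514 over 6497 genes). In neither line, however, was every –YBX1 library closest to the +YBX1 library of its own number. The fit with the number as a block changed no call of a member there. Bounds use 3 reads over a group. Pieces of 3′ ends were mapped by minimap2 2.31. The code was tested on simulated data.

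Alternatives were the block, other scalings, variance models, filters and offsets, and each library left out. Named are all members, YBX1, at most 3 called genes with the largest change per list and comparison (more where a count of 5 or fewer is spelled out), markers by counts, and genes among the 5 nearest in pattern, of which 1 is not reported here. The members, lists and ratios were chosen with earlier results of these data known.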

Additional observations from a re-analysis of the deposited data

How the results depend on the processing

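In the line comparisons, 326 of 348 member values under the alternatives kept their direction and side of the threshold, 15 lost the call, 6 gained it and 1 turned. Above the first quartile of expression 4 members were left to test, of which 4, 4 and 1 were called (SCC15 minus OKF6, SCC15 minus SCC25, SCC25 minus OKF6), since this filter removes genes low in SCC15. With each library left out, 7 to 8, 8 and 0 to 2 members were called, and CCL20 in SCC25 minus OKF6 ranged from -0.65 to 0.14, turning without OKF6 replicate 2. Equal library medians moved the median of all genes by 0.16 in SCC15 minus OKF6 and 0.15 in SCC15 minus SCC25, and quantile normalization by -0.18 in SCC25 minus OKF6 and 0.18 in SCC15 minus SCC25. The cause of these changes was not tested. Depth limits values of a few reads.

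After knockdown 0 members were called under any alternative. With each library left out, changes in SCC25 ranged from 0.11 to 0.53 for IL1A, 0.24 to 0.996 for CXCL2, -0.84 to -0.15 for CXCL8, -0.021 to 0.63 for IL1B, -0.32 to 0.15 for IL18, -0.48 to 0.064 for CXCL1, -0.34 to 0.20 for CXCL3 and -0.070 to 0.42 for CCL20. CXCL3 ranged from -0.74 to 0.13 in SCC15, from -0.39 to 0.062 in the mean of both lines and from -0.13 to 0.74 in the difference between them, and YBX1 from -0.22 to 0.58 in that difference.

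With the replicate block, 8, 8 and 2 members were called in the line comparisons and 0 after knockdown. There it changed the call in SCC25 minus OKF6 of IL18 (adjusted p = 0.0773, limma) and CXCL2 (adjusted p = 0.0429, limma). Libraries of different lines share only a number (correlations of -0.207 to 0.26).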
